A study of Homo sapiens with 2 samples.

Results

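The genes described here copy the genome or decide when copying starts: the origin recognition and helicase loading factors, the MCM helicase and its partners, the clamp, the clamp loader, the replicative polymerases, the enzymes of deoxynucleotide synthesis, and a few regulators of entry into S phase. The list holds 50 genes, and a member was any gene on it that the platform annotation assigned at least 1 probe set of its own. All 50 were measured, with 96 probe sets, among 19775 genes on the array. They were set side by side in AGS.W, AGS cells infected with a lentivirus carrying the whole WTX coding region, and in AGS.veh, the negative control line, whose construct the sources used here do not describe. AGS is a gastric adenocarcinoma line, both lines were stable pools or clones selected with puromycin, and the sources used here do not say which. There was 1 Affymetrix U133 Plus 2.0 array for each line, and a gene has 1 or more probe sets on it, so every value below is a difference between 2 cultures with no replicate, no standard error and no p-value.

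Of epithelial markers, 6 of 8 lay at or above the array median on at least 1 array, and KRT18, a keratin of simple epithelia, was bright with 10.87 log2 units in AGS.W against 11.17 in AGS.veh, whereas KRT19 and TFF1 lay below the median on both. One field of the labels speaks of RNA from brain. GFAP, the defining transcript of astrocytes, lay below the median at 3.44 in AGS.W against 2.97 in AGS.veh, although 5 of 7 measured brain markers reached it. The brightest brain markers were GAD1, with 7.06 (AGS.W) against 7.11 (AGS.veh), and MBP, with 6.10 (AGS.W) against 6.19 (AGS.veh). Both genes exceeded the upper quartile of signals, which was 5.83 on each array. EPCAM, an epithelial adhesion molecule, was 1.89-fold higher in AGS.W, and MUC1, an epithelial mucin, 1.72-fold higher. The keratin KRT8 and the claudin CLDN4 were 1.30-fold and 1.29-fold lower. Of the 6 epithelial markers that reached the median, 3 were higher in AGS.W and 3 lower, with a median log2 difference of 0.01. Of fibroblast markers, 3 of 6 passed, and COL1A1, a collagen chain, had 7.89 in AGS.W and 6.95 in AGS.veh, with a difference of -0.34 on another probe set. Of 5 measured leukocyte markers, CD3E alone passed, at 4.39 in AGS.W against 4.42 in AGS.veh, while PTPRC, the common leukocyte antigen, had 1.85 in AGS.W and 1.63 in AGS.veh. WTX itself (AMER1) was read by 1 probe set, at 3.70 in AGS.W and 3.86 in AGS.veh, so the array did not show the overexpression. Whether that probe set lies inside the coding region carried by the vector was not settled, and it therefore does not check the labels.

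Replication is prepared in G1, when the origin recognition complex, CDC6 and CDT1 load the ring of MCM proteins onto DNA, and it starts when CDC45 and the GINS complex turn that ring into an active helicase. Polymerase alpha with primase lays down primers, the clamp loader RFC places the PCNA clamp, and polymerases delta and epsilon extend the strands. Most of these genes are transcribed at the border of G1 and S under the control of E2F factors, which the retinoblastoma protein holds back until cyclin-dependent kinases release them. Cyclin E and the phosphatase CDC25A activate the kinase CDK2 at that border.

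As a group, these genes were nearly level between the lines. Over the 50 members the median of the log2 differences (the AGS.W signal minus the AGS.veh signal) was 0.03, with the middle of the list between -0.27 and 0.15, against a median of -0.01 over the 12811 genes that passed the signal filter. A gene passed when its signal reached the array median (4.02 in AGS.W, 4.03 in AGS.veh) on at least 1 array, and all 50 members reached it on both. In AGS.W 26 members were higher by any amount, 23 were lower and 1 was equal, where 45.7% of all genes above the filter were higher and 50.5% lower. None was 2-fold apart in either direction, where 1.83% of all genes reached 2-fold higher and 1.94% reached 2-fold lower. At 1.5-fold, 0 members were higher (6.64% of all genes) and 2, GINS2 and MCM10, were lower (7.37% of all genes). CCNE1 stood just outside that limit, 1.49-fold lower. Past a smaller limit of 0.322 log2 units, 5 members were higher (16.6% of all genes) and 10 lower (19.1% of all genes), or 7 and 8 after subtraction of a lowess curve of the difference on the signal. In bulk RNA, a different share of cells in a phase and a different amount of RNA per cell cannot be told apart.

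E2F letters were frequent in the sequence around the start of these genes. RefSeq (GRCh38.p14) gave a window of 250 bases before to 50 bases after the annotated gene start for 43 of the 50. It was searched on both strands for the E2F letters TTTCCCGC, TTTCGCGC, TTTGCCGC and TTTGGCGC, and separately for the CCAAT box. An E2F match was present in 22 of the 43 windows, or 51.2%, against 5.30% of the 10339 windows of genes above the signal filter and 3.33% of all 27305 windows of this length. Of their 29 matches, some of which overlap on opposite strands, 23 began no more than 100 bases before the gene start or after it. CCAAT was present in 25 windows, or 58.1%, against 36.5% of genes above the filter. Members with and without the E2F letters lay in both directions. Of the members, 9 of the 22 genes with a match were higher in AGS.W and 13 lower, with a median difference of -0.08. Of the 21 without, 13 were higher and 7 lower, with a median of 0.07. Among all genes above the filter, 45.7% were higher and 50.5% lower. Those with a window had a median of -0.02 with the letters and -0.01 without. A match is a description of letters and was not tested as a site. Only exact letters were counted, so TTTGGCGG in the MCM10 window, which differs from TTTGGCGC in its last letter, was not.

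Of these windows, 6 are printed 5′ to 3′ in the direction of the gene, with E2F letters in capitals. GINS2 and MCM3 stand for members lower in AGS.W whose window holds the letters, CDC6 and MCM6 for members higher in AGS.W with them, E2F1 for the regulator itself, and MCM10 for a member that was lower in AGS.W without a match. They lie at chr16:85688905-85689204 on the minus strand, chr6:52284693-52284992 on the minus strand, chr17:40287629-40287928 on the plus strand, chr2:135876394-135876693 on the minus strand, chr20:33686336-33686635 on the minus strand and chr10:13161308-13161607 on the plus strand.
GINS2: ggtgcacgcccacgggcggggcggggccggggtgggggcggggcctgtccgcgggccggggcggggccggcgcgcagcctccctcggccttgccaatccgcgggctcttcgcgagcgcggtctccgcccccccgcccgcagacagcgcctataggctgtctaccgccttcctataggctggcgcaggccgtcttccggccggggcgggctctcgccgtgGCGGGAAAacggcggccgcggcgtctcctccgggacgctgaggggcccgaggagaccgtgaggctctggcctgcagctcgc
MCM3: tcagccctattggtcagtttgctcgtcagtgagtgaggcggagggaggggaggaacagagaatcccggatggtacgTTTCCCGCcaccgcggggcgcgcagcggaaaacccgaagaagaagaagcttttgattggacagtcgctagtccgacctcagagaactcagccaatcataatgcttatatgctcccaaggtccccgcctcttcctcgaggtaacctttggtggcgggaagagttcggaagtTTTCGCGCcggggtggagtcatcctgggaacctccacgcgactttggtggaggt
CDC6: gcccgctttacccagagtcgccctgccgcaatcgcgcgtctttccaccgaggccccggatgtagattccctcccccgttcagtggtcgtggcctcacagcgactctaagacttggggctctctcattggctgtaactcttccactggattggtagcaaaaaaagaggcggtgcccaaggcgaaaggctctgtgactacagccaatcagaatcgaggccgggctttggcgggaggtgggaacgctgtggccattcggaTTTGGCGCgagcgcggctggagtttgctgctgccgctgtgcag
MCM6: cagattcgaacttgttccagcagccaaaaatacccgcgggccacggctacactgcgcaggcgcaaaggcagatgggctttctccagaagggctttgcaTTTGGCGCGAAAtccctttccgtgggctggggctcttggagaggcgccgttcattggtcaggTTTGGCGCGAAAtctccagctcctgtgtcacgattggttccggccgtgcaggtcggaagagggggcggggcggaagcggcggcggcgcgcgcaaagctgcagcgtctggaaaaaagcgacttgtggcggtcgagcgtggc
E2F1: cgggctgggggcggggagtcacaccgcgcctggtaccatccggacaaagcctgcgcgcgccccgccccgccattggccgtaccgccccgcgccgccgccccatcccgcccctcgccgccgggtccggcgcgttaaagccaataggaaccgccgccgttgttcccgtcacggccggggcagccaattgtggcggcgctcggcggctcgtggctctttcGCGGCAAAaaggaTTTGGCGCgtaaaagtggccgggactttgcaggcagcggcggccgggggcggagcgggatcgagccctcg
MCM10: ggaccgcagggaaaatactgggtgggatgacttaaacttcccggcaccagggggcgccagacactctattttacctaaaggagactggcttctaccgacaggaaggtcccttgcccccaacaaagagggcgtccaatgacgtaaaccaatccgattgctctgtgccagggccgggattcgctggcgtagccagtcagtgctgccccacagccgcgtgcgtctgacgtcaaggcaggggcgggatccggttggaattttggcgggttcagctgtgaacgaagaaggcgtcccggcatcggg
The match of GINS2 ran from base -31 to base -24, counted from the gene start at 0, and that of CDC6 from base 7 to base 14. MCM6 held 4 matches, which form overlapping pairs, so that the letters TTTGGCGCGAAA appear at each of 2 places.

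**Figure D1:**
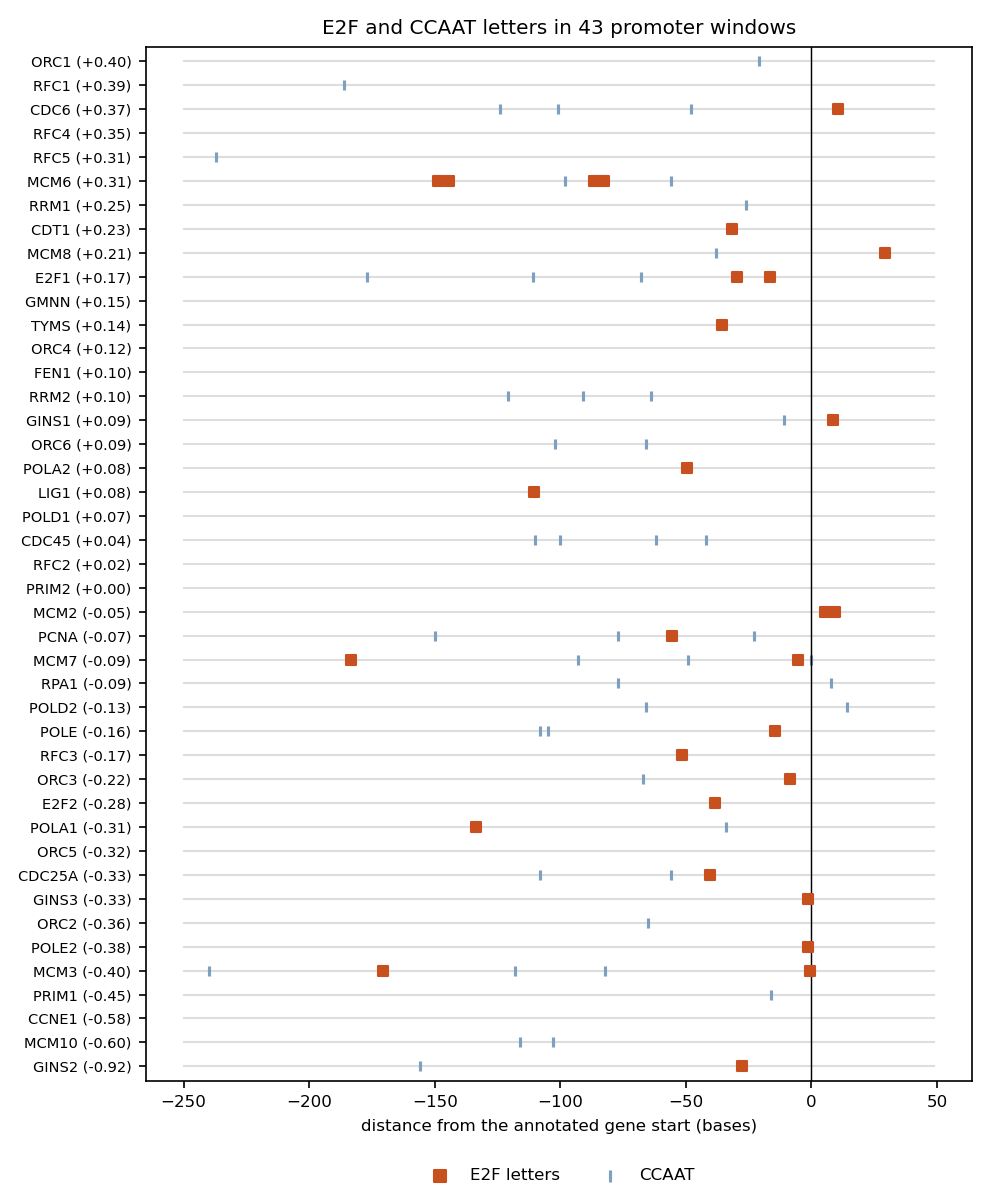
Positions of E2F letters (squares) and CCAAT (ticks) in the 43 promoter windows, in bases from the annotated gene start, with genes ordered by their log2 difference AGS.W minus AGS.veh (in brackets) from ORC1 (0.40) at the top to GINS2 (-0.92) at the bottom. Squares are found along the whole order, in 22 windows.

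Among the 6 subunits of the origin recognition complex, which marks the places where replication can start, 3 were higher in AGS.W and 3 lower. ORC1, the large ATPase subunit, had a log2 signal of 6.03 in AGS.W against 5.64 in AGS.veh, a 1.32-fold higher value on its only probe set. ORC2 had 6.42 in AGS.W and 6.79 in AGS.veh, 1.29-fold lower, while its other probe set differed by -0.03. The ORC1 and ORC2 values, of nearly the same size, thus ran in opposite directions. ORC5 had a difference of -0.32, with -0.38 on a further probe set, and ORC3 had -0.22. ORC4 and ORC6, the subunit least firmly bound to the complex, had 0.12 and 0.09.

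The 3 genes around helicase loading were all higher in AGS.W, by small amounts, where 45.7% of all genes above the filter were higher. CDC6, which recruits the helicase to the origin, had signals of 7.61 in AGS.W against 7.24 in AGS.veh, 1.29-fold higher, and its further probe set had a log2 difference of 0.47. CDT1, its partner in loading, had a difference of 0.23 on the probe set of highest signal and 0.98 on the other, where the signals were 6.39 in AGS.W and 5.42 in AGS.veh. GMNN, the gene of geminin, the inhibitor of CDT1 that accumulates from S phase onwards, had a difference of 0.15. The size of the CDT1 difference therefore depended on which probe set was read, while the direction did not.

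Of the MCM core, the ring of 6 proteins that unwinds DNA, 3 subunits were higher in AGS.W and 3 lower. This is near the share of all genes above the filter (45.7% higher, 50.5% lower). MCM2 had log2 signals of 9.45 in AGS.W against 9.50 in AGS.veh. MCM3 had 8.16 in AGS.W and 8.56 in AGS.veh, which made it the subunit furthest below AGS.veh, 1.32-fold lower. MCM4 had 8.61 in AGS.W and 8.58 in AGS.veh. It was read by 5 probe sets with differences between -0.28 and 0.11, which is the range that probe sets of this gene showed between the same 2 RNAs. MCM5 had 8.01 in AGS.W and 7.97 in AGS.veh. MCM6 had 9.03 in AGS.W and 8.72 in AGS.veh, 1.24-fold higher and the furthest above AGS.veh. MCM7 had 8.96 in AGS.W and 9.05 in AGS.veh, with differences of -0.09 and -0.11 on its probe sets. The proteins of the ring are present in equal numbers within it, and the median difference of their transcripts was -0.01.

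Outside the ring, MCM8, a helicase of DNA repair, had a difference of 0.21, and 0.22 on another probe set. MCM10, which helps to switch on the helicase at the origin, had 6.16 in AGS.W and 6.76 in AGS.veh, 1.52-fold lower. Its other probe sets had differences of -0.05 and -0.02, so that the direction was shared by all 3, whereas the mean over them was -0.22 and the value with _x_at and _s_at probe sets left out -0.05, both short of 1.5-fold.

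The factors that activate the helicase held the member furthest below AGS.veh. GINS2, a subunit of the GINS complex, had a log2 signal of 7.63 in AGS.W against 8.55 in AGS.veh, 1.89-fold lower. A dimmer probe set of GINS2 had 3.80 in AGS.W, below the array median, and 4.54 in AGS.veh, while another had 5.02 in AGS.W and 4.76 in AGS.veh. The probe sets of GINS2 thus disagreed in direction, and over all of them the mean difference was -0.47. Probe sets of the _s_at and _x_at types can match several transcripts. Without these types, the brighter probe set left had 0.25 and the dimmer -0.74. GINS3 had 5.74 in AGS.W and 6.07 in AGS.veh, 1.26-fold lower, with -0.49 on its other probe set. GINS4 had 6.53 in AGS.W and 6.93 in AGS.veh, 1.32-fold lower, with -0.15 and 0.06 on its other probe sets above the filter. The remaining GINS subunit and the helicase cofactor were close to level, with differences of 0.09 for GINS1 and 0.04 for CDC45. On their probe sets of highest signal, 3 of the 4 GINS subunits were therefore lower by more than 0.322 log2 units (19.1% of all genes). Among these 3, the probe sets of GINS3 alone shared 1 direction.

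**Figure D2:**
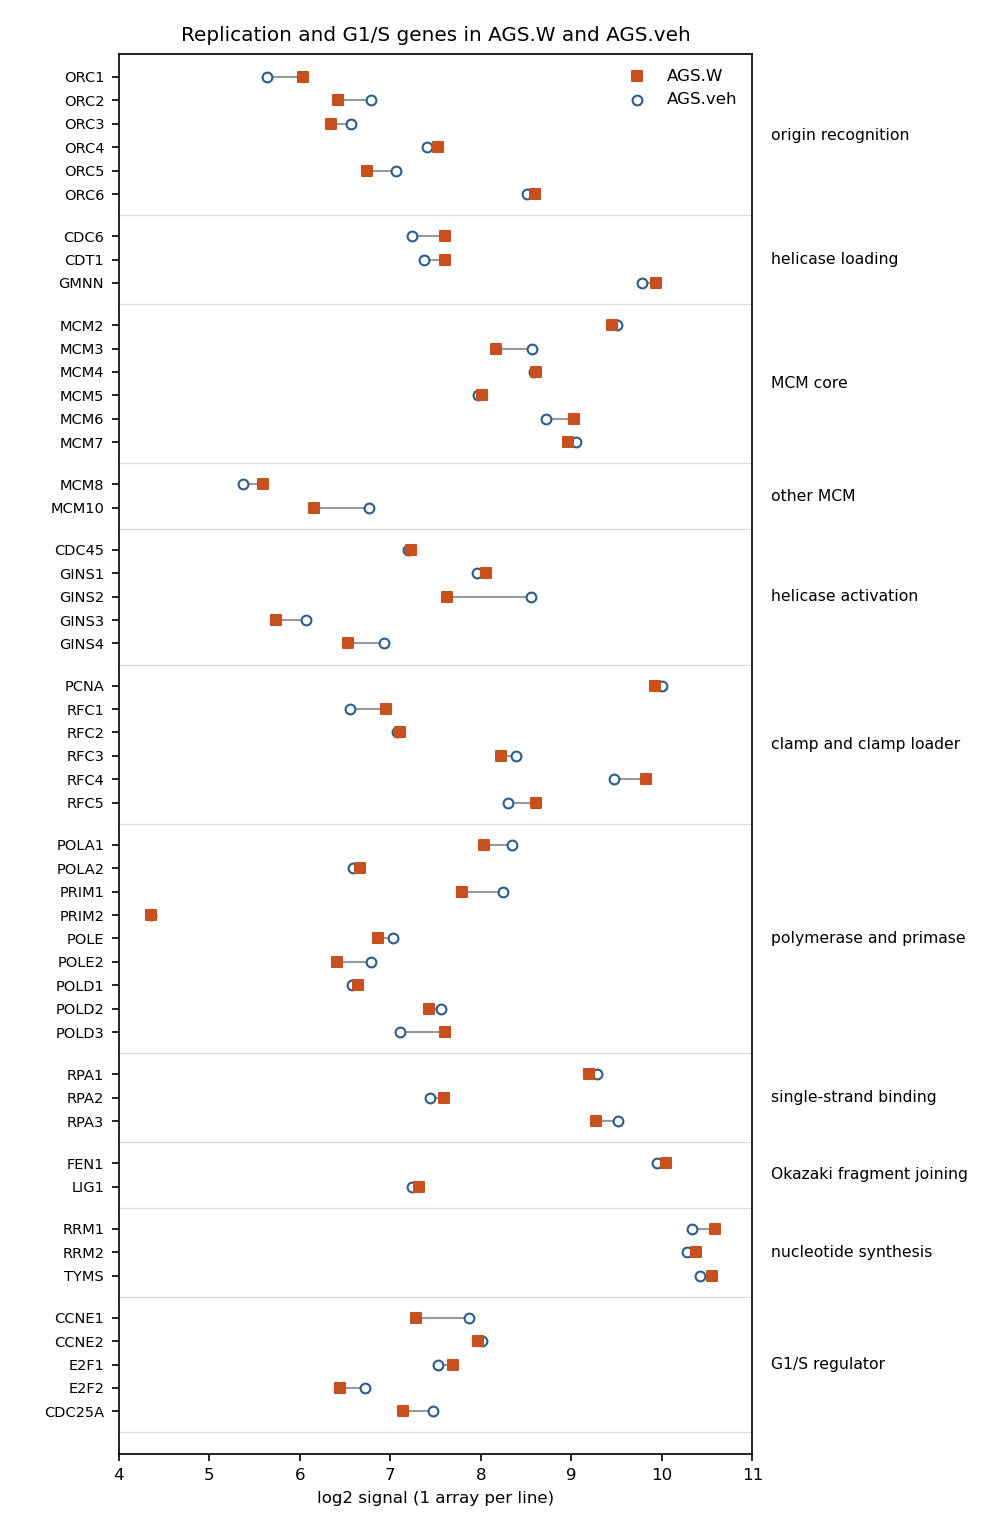
Log2 signal (horizontal axis) of each of the 50 genes in AGS.W (squares) and AGS.veh (open circles), 1 array each, on the probe set of highest mean signal, grouped by role. GINS2 has the longest connecting line, at 7.63 in AGS.W against 8.55 in AGS.veh; signals of different genes come from different probes and are not comparable as levels.

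PCNA, the sliding clamp that holds the polymerases on DNA, had a difference of -0.07. Of the 5 subunits of its loader RFC, 4 were higher in AGS.W (45.7% of all genes above the filter). RFC1, the large subunit, had 6.95 in AGS.W and 6.56 in AGS.veh, 1.31-fold higher, with 0.29 on a further probe set. RFC4 had 9.82 in AGS.W and 9.47 in AGS.veh, 1.27-fold higher on its only probe set. The remaining loader subunits were not uniform. RFC5 had a difference of 0.31, with 0.28 and -0.36 on its other probe sets, while RFC2 had 0.02 and RFC3 had -0.17, with 0.17 on another probe set.

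Of the 9 polymerase and primase genes, 5 were lower in AGS.W, 3 higher and 1 equal, a share near that of all genes above the filter (50.5% lower). PRIM1, the catalytic subunit of primase, had 7.79 in AGS.W and 8.24 in AGS.veh, 1.36-fold lower on its only probe set. POLA1, the catalytic subunit of polymerase alpha, which extends the primers, had a difference of -0.31, and its partner POLA2 had 0.08 and, on a further probe set above the filter, -0.11. PRIM2, the other primase subunit, had an identical log2 signal of 4.36 on both arrays. Identical values on both arrays were found for 6900 of all 54613 probe sets, so such a tie is not particular to PRIM2. Of polymerase epsilon, which copies the leading strand, POLE had -0.16, and POLE2 had 6.41 in AGS.W and 6.79 in AGS.veh, 1.30-fold lower. Of polymerase delta, POLD1 and POLD2 had 0.07 and -0.13. POLD3, an accessory subunit, had 7.61 in AGS.W and 7.11 in AGS.veh. At 1.41-fold higher it was the member furthest above AGS.veh, but its other probe set had -0.26 and the mean of both was 0.12.

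The genes of RPA, which coats exposed DNA strands, and of Okazaki fragment joining lay near 0. RPA1, RPA2 and RPA3 had differences of -0.09, 0.16 and -0.24, and the nuclease FEN1 and the ligase LIG1 had 0.10 and 0.08. The 3 members of deoxynucleotide synthesis were higher in AGS.W on every probe set above the filter, where 45.7% of all genes above the filter were higher. Their gene values were small. Those of RRM2 and TYMS lay between the quartiles of all genes above the filter (-0.24 and 0.20), and that of RRM1 lay above them. The nucleotide supply genes outside the 50, described below, had a median difference of -0.29, although 5 of the 14 above the filter were higher in AGS.W. RRM1 and RRM2, the large and small subunits of ribonucleotide reductase, had differences of 0.25 and 0.10, and TYMS, thymidylate synthase and the target of fluorouracil, had 0.14. The further probe sets had 0.42 for RRM1, 0.17 for TYMS and 0.82 for RRM2, where the signals were 10.36 in AGS.W and 9.54 in AGS.veh. RRM2 was thus nearly level on one probe set and well apart on the other.

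Of the 5 regulators of the G1 to S border, 4 were lower in AGS.W (50.5% of all genes above the filter) and E2F1 was higher. CCNE1, the gene of cyclin E1, had 7.29 in AGS.W and 7.86 in AGS.veh, 1.49-fold lower, and a probe set below the filter had equal values. CDC25A had 7.14 in AGS.W and 7.47 in AGS.veh, 1.26-fold lower, and its other probe sets had -0.37 and -0.50, so that all 3 had the same direction. E2F2, an activating E2F factor, had 6.44 in AGS.W and 6.72 in AGS.veh. CCNE2, the gene of cyclin E2, had 7.97 in AGS.W and 8.01 in AGS.veh, with -0.18 on its other probe set. E2F1, the best known activator of the replication genes, had 7.69 in AGS.W and 7.52 in AGS.veh, a difference of 0.17, with 0.04 on its other probe set.

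How far single probe sets can be trusted at differences of this size was seen from the 27 members read by several probe sets above the filter. In 17 of them all probe sets had the same direction, and in 10 they did not, counting an exact 0 as no direction. The probe sets of 6 members, GINS2, POLD3, CDT1, RRM2, RFC5 and MCM10, were more than 0.5 log2 units apart, a size that 3 of the 50 gene differences exceeded. The 36 further probe sets of the members had a median difference of 0.00, with 16 higher, 18 lower and 2 equal. The near-level median of the group was therefore also seen on probe sets that the gene values did not use.

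**Figure D3:**
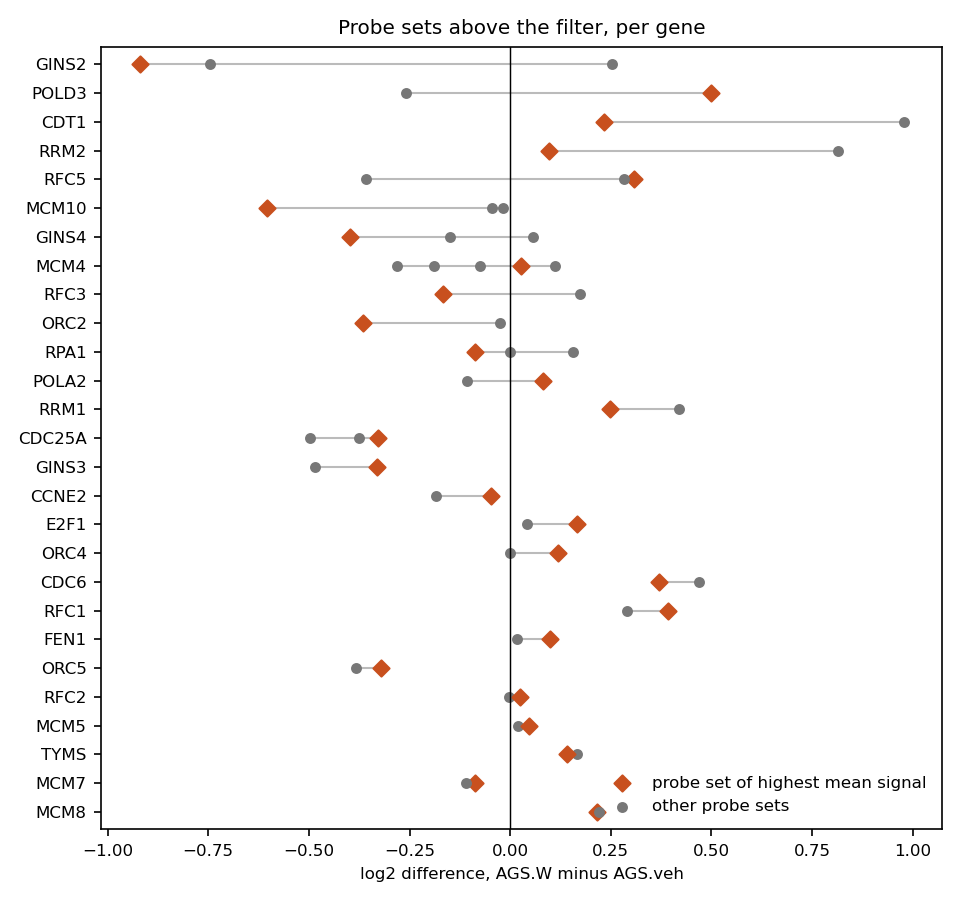
Log2 difference AGS.W minus AGS.veh of every probe set above the signal filter for the 27 members with more than 1, ordered by their range; diamonds mark the probe set of highest mean signal. GINS2 spans from -0.92 to 0.25 at the top, and MCM8 has 0.21 and 0.22 at the bottom.

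Other genes of replication, in 6 lists outside the 50, were also nearly level as a whole. Of 79 that passed the filter, 42 were higher and 35 lower in AGS.W, 1 in each direction was at least 2-fold apart, and the median difference was 0.02. In the list of origin firing and fork progression (18 genes, median 0.09), CHTF18 and ATAD5, subunits of alternative clamp loader complexes, were 1.80-fold and 1.53-fold higher, while TIPIN, a fork protection factor, was 1.64-fold lower and DSCC1, a partner of CHTF18, 1.51-fold lower. On its other probe set DSCC1 had a difference of 0.00. Of the other replisome enzymes (14 genes, median 0.01), TOP2A was 2.38-fold higher, with differences of 1.30 and 1.33 on its other probe sets. TOP2A is a topoisomerase that untangles DNA and is most abundant in G2 and mitosis. RNASEH2C, a subunit of the enzyme that removes RNA from DNA, had a difference of -0.59, with -0.23 on its other probe set. In the checkpoint list (8 genes, median 0.19), WEE1, the kinase that restrains CDK1, was 1.59-fold higher.

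The nucleotide supply list (14 genes) had the lowest median of the 6, with -0.29, and 9 of its genes were lower in AGS.W. CTPS1, a CTP synthase, had 6.98 in AGS.W and 7.99 in AGS.veh, 2.01-fold lower. SAMHD1, which breaks down deoxynucleotides, was 1.75-fold lower with the same direction on all 4 of its probe sets above the filter, and NME1, a nucleoside diphosphate kinase, was 1.62-fold lower. RRM1, RRM2 and TYMS of the 50 genes lay on the other side of 0, as did 5 of the 14 genes of this list. The furthest of these was TK1, with a difference of 0.55 and, on its other probe set, 0.44. Of chromatin assembly genes (10 genes, median -0.01), only UHRF1, which helps to copy DNA methylation, was 1.5-fold apart, 1.57-fold lower.

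Among the E2F, retinoblastoma and DREAM genes (15 above the filter, median 0.06), 9 were higher in AGS.W and 6 lower. E2F6, a repressor of the family, had 6.79 in AGS.W and 7.67 in AGS.veh, 1.83-fold lower. TFDP1, the dimer partner of most E2F proteins, had 8.55 in AGS.W and 9.27 in AGS.veh, 1.64-fold lower, but -0.25 and 0.10 on its other probe sets. E2F3, an activator, had 7.52 in AGS.W and 8.21 in AGS.veh, 1.61-fold lower, with -0.63 on its other probe set. LIN37, a DREAM subunit, was 1.70-fold higher, with -0.18 on its other probe set. Of the activating factors E2F1, E2F2 and E2F3, therefore, 1 was higher and 2 lower, and E2F3 alone was 1.5-fold apart.

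Genes of mitosis, set beside the replication genes because both groups are read in cycling cells, were mostly higher in AGS.W. Of 40 listed, 38 were higher in AGS.W and 2 lower, 22 reached 1.5-fold higher and 6 of them 2-fold higher, and the median difference was 0.64, against 26 higher, 0 at least 1.5-fold higher and a median of 0.03 for the 50 replication genes. MKI67, CKAP2L and HJURP led this list with differences of 1.59, 1.46 and 1.29, although MKI67 had 0.14 and 0.21 on 2 of its other probe sets. On further probe sets the contrast was similar, with a median of 0.50 over 24 for mitosis and of 0.00 over 36 for replication. Each list was described by its counts and medians alone, since 1 array per line allows no test of their difference. The lists were chosen with earlier results of these data known, and the further probe sets read the same RNAs.

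**Figure D4:**
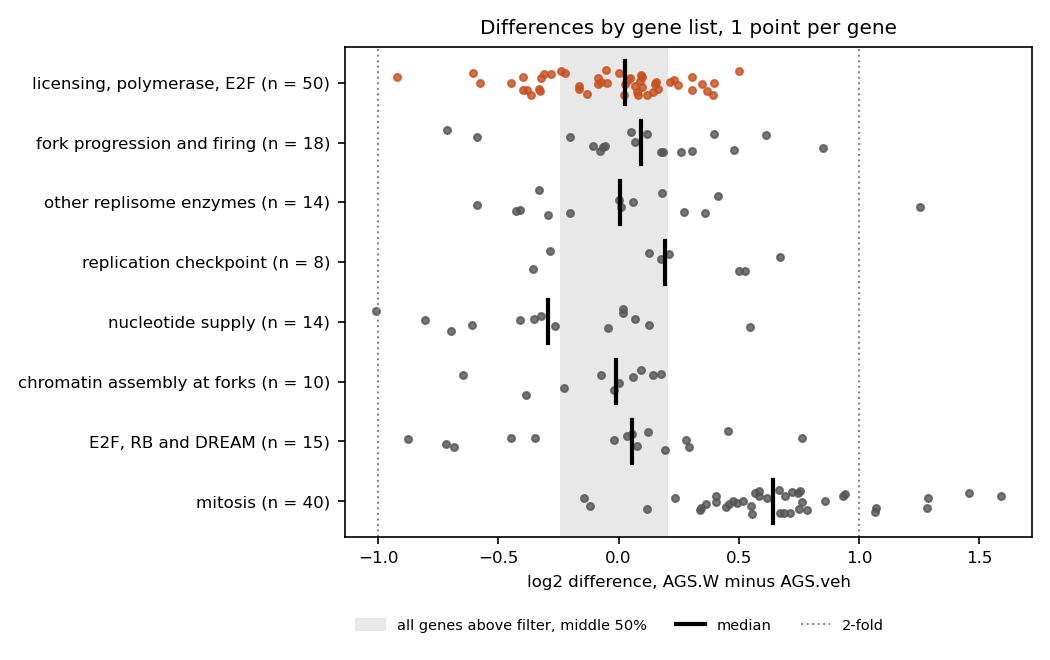
Log2 difference AGS.W minus AGS.veh (horizontal axis) of every gene above the signal filter, by list, 1 point per gene, with the median of each list as a bar and the middle 50% of all genes above the filter shaded; the 50 replication genes are in colour. Their median is 0.03 and none reaches 2-fold, while the mitosis list has a median of 0.64.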

How the data were processed

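Per the labels and methods, the authors deposited log2 signals for each probe set, 1 Affymetrix U133 Plus 2.0 array per line. Both columns have nearly equal medians, as values normalized between arrays do, and RMA and MAS5 are listed as tools, with versions and background correction not given in the sources used here. Values were used as deposited. Precision is limited by having 1 array per line.

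After 62 control probe sets were left out, 54613 remained. Platform annotation gave 41091 of them 1 gene, 1801 several genes, which were not used, and 11721 none here. Symbols were updated through RefSeq gene identifiers (GRCh38.p14), and 54 probe sets kept the older symbol. Where a gene had several probe sets, the one with the highest mean signal stood for it. The members and lists were chosen with earlier results of these data known. Every member is given. Both signals are given for members at least 0.322 log2 units apart, the MCM core, the G1 to S regulators, and members whose probe sets differ in sign with 1 at least 1.5-fold apart. Both signals of single further probe sets were added after the values were seen. Of each list, up to 3 genes in each direction at least 1.5-fold apart are named, with AMER1 and, added after the values were seen, TK1. The thresholds of 2-fold, from the methods, 1.5-fold and 0.322 log2 units had no FDR, which 1 array per line does not allow. The count at this smallest threshold was added after the values were seen. Other settings tried were arrays centred on their medians, quantile normalization, subtraction of a lowess curve (span 0.3), stricter or no signal filters, and 3 other summaries of probe sets. The offset planned for linear values was not needed. Procedures were tested on simulated data with planted differences larger than that of any member, so the test does not cover differences of the size reported here. The software was Python 3.11.15 with statsmodels 0.14.6, pandas 2.3.3 and numpy 2.4.6, and matplotlib 3.10.9 for plots.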

Additional observations from a re-analysis of the deposited data

How the results depend on the processing

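No paired analysis was possible because there were no replicates, and for this reason none was left out in turn. A median was taken as moved beyond 0.1 on the log2 scale, a count beyond 1.5 times, and a gene beyond 0.33, the robust spread of all gene differences. Of 135 alternative medians and counts, 126 stayed within these limits, and the median of the members ranged between -0.05 and 0.05. It was taken over all 50 except for 48 under the upper quartile filter, 46 with the probe set of largest difference and 38 without _x_at and _s_at probe sets. As means of probe sets, 1 member was at least 1.5-fold higher, 0 were 1.5-fold lower and 6 were lower by 0.322 log2 units or more. Without _x_at and _s_at probe sets, 15 members were higher and 0 were 1.5-fold lower, and the chromatin assembly median was 0.14. With the probe set of largest difference, 2 members reached 1.5-fold higher, 8 were higher by 0.322 log2 units or more and the checkpoint median was 0.34. Of 432 alternative gene values, 421 stayed within the spread. The others came from the summary of probe sets. Among them GINS2 changed sign, at 0.25 without _x_at and _s_at probe sets, where a dimmer probe set had -0.74. RFC5 also changed sign, at -0.36 with the probe set of largest difference. Scaling moved 0 gene values. Signal filters cannot change a gene value, only whether it is kept, so the 421 include values that were fixed in advance. The share of probe sets above background and the single array per line limit all values.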

Other observations

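Probe sets assigned to several genes stayed out of the comparisons. Of these, 4 were shared by PRIM2 and PRIM2BP, a copy of it, and had log2 differences, AGS.W minus AGS.veh, of -0.24, -0.08, 0.06 and 0.44, the last with signals of 3.52 in AGS.W against 3.08 in AGS.veh. Another 3 were shared by ATRIP, the partner of the checkpoint kinase ATR, and the nuclease gene TREX1, with -0.44, 0.37 and 0.32. These values cannot be given to 1 gene of a pair.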
